A study of Mus musculus with 22 samples.

Results

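The genotype difference that remained in ursodeoxycholic acid (UDCA) fed livers was measured on 12 arrays, 6 from Cyp2c70 knockout mice (KO_UDCA) and 6 from wild-type mice (WT_UDCA), of the 22 arrays in the series. The members were taken from the genotype and diet labels alone. Each numbered sample is taken here as 1 mouse, which the labels do not state. All were female C57BL/6J mice aged 12 weeks whose chow held 0.1% UDCA for 7 weeks, beginning at the age of 5 weeks. The other 10 arrays came from mice of the same strain, sex and age on regular chow, 5 knockouts (KO_chow) and 5 wild types (WT_chow), and serve here as the second measurement of the genotype difference. The labels do not describe how the Cyp2c70 allele was made, which part of the gene it removes or which cells lack it. The comparison asks which differences from wild type were left in the knockout liver once both genotypes received UDCA.

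Mice differ from humans in that their hepatocytes turn chenodeoxycholic acid and UDCA into hydrophilic muricholic acids, and Cyp2c70 is the cytochrome P450 that does this. Without it the pool holds more hydrophobic bile acids, which can injure bile ducts. Injured ducts are known for a reaction in which cholangiocytes, periportal fibroblasts and recruited macrophages accumulate. UDCA is itself a hydrophilic bile acid. Bile acid synthesis from cholesterol begins with Cyp7a1, is steered towards cholic acid by Cyp8b1 and is repressed through the receptor FXR, and sulfotransferases of the Sult2a family add sulfate to bile acids and steroids, which makes them more soluble.

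Levels are log2 values of the deposited RMA intensities, and a difference is the knockout mean minus the wild-type mean on that scale, so 1 unit is 2-fold. The median level of a UDCA array was between 4.87 and 4.96, and a gene below that median is called dim. The 12 arrays were alike: correlations were 0.983 to 0.988 within groups and 0.9816 to 0.988 between them. The first 3 principal components held 13%, 12.5% and 9.92% of the variance and on each the genotypes overlapped. WT_UDCA replicate 4 and KO_UDCA replicate 4 lay farthest out on the first 2 components, and WT_UDCA replicate 1 on the third, and results that move without them are also given without them. The labels' sample numbers run from 1 to 15 and from 16 to 22, with 3 WT_UDCA and 5 KO_UDCA mice in the lower range and 3 and 1 in the upper. The labels do not say what the numbering stands for. The 7 hepatocyte genes checked, from Alb to Asgr1, stood at or above the 96.6th percentile of all genes on every UDCA array.

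Cyp2c70 itself was lower in every UDCA-fed knockout. Its level ran from 10.27 to 10.74 (median 10.48) in KO_UDCA and from 11.22 to 11.58 (median 11.46) in WT_UDCA. All 6 knockouts lay below all 6 wild types. The mean was 10.51 ± 0.17 in KO_UDCA and 11.43 ± 0.14 in WT_UDCA (SD, n = 6 each), a 1.90-fold fall (log2 difference -0.93, SE 0.09, 95% interval -1.13 to -0.73, limma adjusted p = 0.00162). On chow the difference was -0.84 (adjusted p = 0.000287), and the interaction of genotype with diet was -0.09 (adjusted p = 0.814). Both knockout groups kept a Cyp2c70 signal far above the array median. Since the labels give neither the deleted part nor the probes' positions, this level checks the labels and does not measure how much intact transcript remained.

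The promoters of Cyp2c70 and of 2 uncalled genes with differences below 0, Cyp8b1 and the sulfotransferase gene Sult2a3, are shown because hepatocyte factors are known to drive such genes. The 250 bases before each annotated start were taken from RefSeq on GRCm38.p6, and all 3 genes lie on the minus strand. Capitals mark matches to CAAAGTCCA (an HNF4A motif), to an HNF1 motif or to AGGTCA (a nuclear receptor half-site), searched on both strands with no overlap between the matches shown.
Cyp2c70, chr19:40187287-40187536: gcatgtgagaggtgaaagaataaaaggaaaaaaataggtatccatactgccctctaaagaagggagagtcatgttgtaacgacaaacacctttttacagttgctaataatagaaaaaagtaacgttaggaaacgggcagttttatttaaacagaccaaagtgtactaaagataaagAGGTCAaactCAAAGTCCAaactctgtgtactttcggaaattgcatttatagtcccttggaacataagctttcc
Cyp8b1, chr9:121916306-121916555: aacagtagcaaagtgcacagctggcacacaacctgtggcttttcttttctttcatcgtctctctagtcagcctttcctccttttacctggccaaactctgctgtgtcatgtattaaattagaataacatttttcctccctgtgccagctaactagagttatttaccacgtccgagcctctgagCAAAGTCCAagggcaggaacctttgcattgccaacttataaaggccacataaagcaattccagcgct
Sult2a3, chr7:14123049-14123298: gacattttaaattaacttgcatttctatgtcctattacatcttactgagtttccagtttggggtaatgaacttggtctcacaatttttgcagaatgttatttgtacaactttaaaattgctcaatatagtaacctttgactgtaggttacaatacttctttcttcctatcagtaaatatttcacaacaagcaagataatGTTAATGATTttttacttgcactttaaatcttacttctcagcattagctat
The HNF4A letters stood at position -64 of Cyp2c70 and -67 of Cyp8b1, counted from the start, and occur in 126 of 32851 promoters of this length (0.384%). The HNF1 letters stood at -51 of Sult2a3, as GTTAATGATT, and occur in 122 promoters (0.371%). The half-site at -74 of Cyp2c70 is a common word, found in 14.0% of promoters. These matches describe the sequence only.

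Across the genome, 2 of 24011 genes passed the test between the UDCA-fed genotypes (0.00833%, limma, Benjamini-Hochberg adjusted p below 0.05): Cyp2c70 and Sult2a1, both lower in the knockout. No gene was called higher. At an unadjusted p below 0.05 there were 574 higher (2.39%) and 823 lower (3.43%) genes, together 5.82%. A fit to all 22 arrays called 4 genes, all lower, by adding Tafa2 (adjusted p = 0.0211) and 1810053B23Rik (adjusted p = 0.0467). The arrays of the genotypes did not overlap for 70 genes (0.292%), 26 higher (0.108%) and 44 lower (0.183%). The sizes were small for nearly every gene. The median standard error was 0.11 log2 units, and for 23869 genes (99.4%) the whole 95% interval of the difference lay within 2-fold either way. Only 6 estimates reached 2-fold. Lower were 4 genes (0.0167%), Sult2a1, Sult2a2, Sult2a3 and Akr1c18, a hydroxysteroid dehydrogenase, and higher were 2 genes (0.00833%), the retinol dehydrogenase gene Dhrs9 and the immunoglobulin segment Ighv1-50. Akr1c18, picked out after its value was seen, differed by -1.19 (adjusted p = 0.719) and reached 7.63 in WT_UDCA replicate 4, against 4.93 to 6.48 in the other wild types. On chow its difference was 0.145 (adjusted p = 0.7). Its means were 4.70 in KO_UDCA, 5.89 in WT_UDCA, 4.51 in KO_chow and 4.36 in WT_chow. Ighv1-50, picked out in the same way, was dim on every UDCA array, and its estimate of 1.02 had an adjusted p of 0.741.

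Sult2a1, which encodes a hydroxysteroid sulfotransferase that acts on bile acids, had the largest difference of all genes. Its level in KO_UDCA was 3.90 to 5.07 (median 4.57), and 4 of these 6 mice were below the array median. In WT_UDCA it was 6.01 to 7.55 (median 6.74). The groups did not overlap. The fall was 4.61-fold (log2 difference -2.20, SE 0.29, 95% interval -2.83 to -1.58, adjusted p = 0.0235). Since most knockouts read it near the dim end of the array, the size is not exact: adding 16 to each intensity before the log gave -1.66 (adjusted p = 0.0411).

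The same gene was lower in knockouts on chow, and by more. WT_chow mice read 8.26, 7.94, 7.72, 7.29 and 7.44, and KO_chow mice 2.80, 2.35, 4.82, 2.64 and 2.45. The difference on chow was -4.72 (adjusted p = 3.35e-05), and the interaction was 2.51 (SE 0.52, adjusted p = 0.0112), the genotypes being closer under UDCA. All 5 KO_chow mice were below the array median, so the sizes of the chow difference and of the interaction are not exact either. KO_UDCA mice lay between the chow groups, except that replicates 1, 2, 3 and 5 stood below the highest KO_chow mouse.

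The Sult2a1 call was lost in some settings. WT_UDCA mice split by sample number, with replicates 1 to 3 (numbers 1 to 15) at 6.01 to 6.26 and replicates 4 to 6 (numbers 16 to 22) at 7.21 to 7.55. Within the lower range of numbers the difference was -1.65 (3 wild types against 5 knockouts, adjusted p = 0.163), and in the upper range, with 1 knockout, it was -2.36 and has no test. With the numbering as a covariate it was -1.85 (adjusted p = 0.00188). The adjusted p was above 0.05 without KO_UDCA replicate 1 (0.0823), 2 (0.0623), 3 (0.0855) or 5 (0.083) or WT_UDCA replicate 4 (0.0788), 5 (0.0603) or 6 (0.0651), without both replicate 4 arrays (0.132), and with trended robust variances (0.128), and the estimates in these settings and within sample numbers 1 to 15 ran from -2.21 to -1.65.

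None of its relatives was called. Sult2a2, another hydroxysteroid sulfotransferase, read 6.17 to 8.65 (median 7.15) in KO_UDCA and 8.07 to 9.95 (median 8.87) in WT_UDCA, with some overlap. Its difference was -1.71 (95% interval -2.60 to -0.83, adjusted p = 0.496), against -3.64 on chow (adjusted p = 0.000879). The 3 WT_UDCA mice of the upper numbers were again the higher ones (9.30 to 9.95 against 8.07 to 8.45). Sult2a3 was dim in all 12 mice and differed by -1.07 under UDCA (adjusted p = 0.411) and by -1.06 on chow (adjusted p = 0.0152). Sult2a4 (-0.49) and Sult2a5 (-0.45) had smaller estimates, Sult2a6 (-0.05) and Sult2a7 (-0.03) lay near 0, and none of these 4 was called. Within sample numbers 1 to 15 the differences were -0.23 for Sult2a4 and 0.08 for Sult2a5, and in the upper range, with 1 knockout, they were -0.62 and -0.92, so the sign for Sult2a5 turned. Sult2a8, known to sulfate bile acids in mouse liver and brightly read here at 8.72 to 9.60 in all 12 mice, differed by only -0.27 (adjusted p = 0.853). Near-identical sequence in this family may let probes of one gene read another, which was not tested. Except for Sult2a1, these family members were named after their values were seen.

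**Figure D1:**
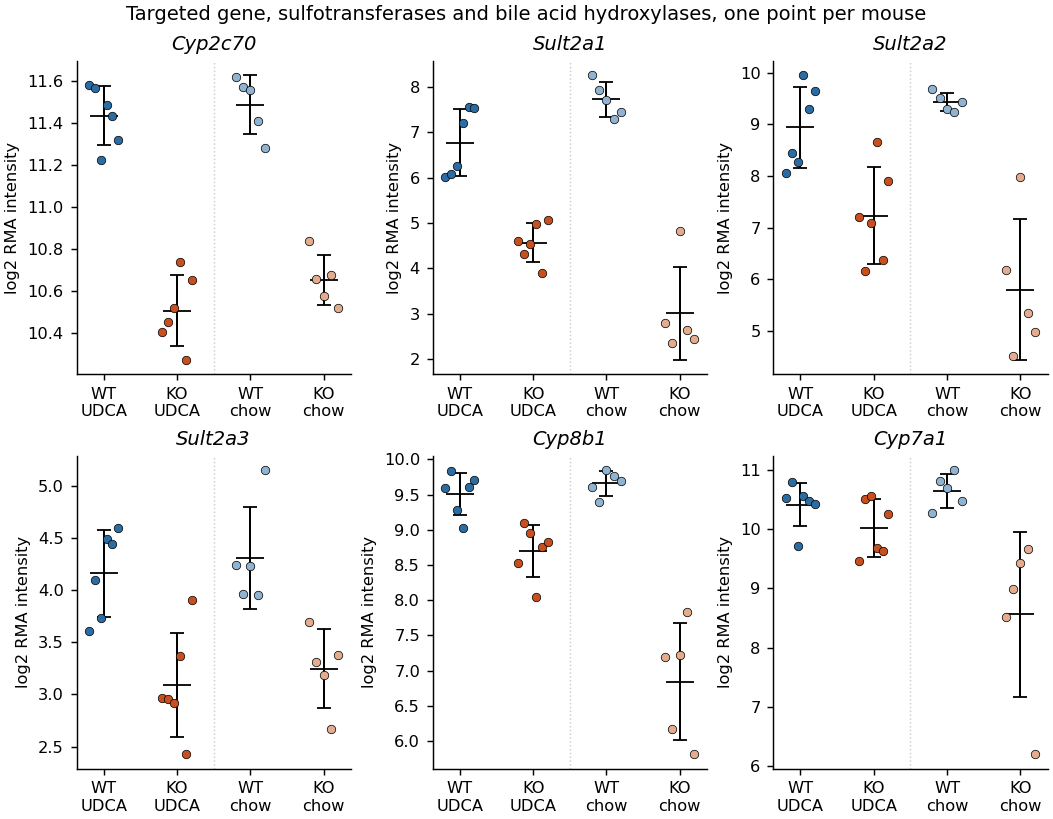
Log2 RMA intensity (vertical axis, a different range in each panel) of 6 genes in each mouse, grouped by genotype and diet, with 6 mice in each UDCA group and 5 in each chow group. Points are mice and the black bars are the mean ± SD. Cyp2c70 and Sult2a1 separate the UDCA-fed genotypes without overlap (10.27 to 10.74 against 11.22 to 11.58 for Cyp2c70), whereas Cyp7a1 in KO_UDCA (9.46 to 10.56) overlaps WT_UDCA (9.72 to 10.79).

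Conjugating enzymes as a list held the 1 called gene Sult2a1 among 20 measured. The median difference of the list was -0.06, beside -0.01 over all genes, and 5 members were lower at an unadjusted p below 0.05 (background 3.43%) and 0 higher (2.39%). Those 5 were the 3 Sult2a genes on the list (Sult2a1, Sult2a2 and Sult2a8), Sult5a1 (-0.57, adjusted p = 0.834) and Ugt1a9 (-0.22, adjusted p = 0.846). The glucuronosyltransferases otherwise ran from -0.06 for Ugt2b35 to 0.11 for Ugt2b38. Averaged over the list, all 6 KO_UDCA mice (-0.40 to -0.16, relative to the WT_UDCA mean) lay below all 6 WT_UDCA mice (-0.09 to 0.18). That mean includes the large differences of Sult2a1 (-2.20) and Sult2a2 (-1.71), and the separation without these genes was not tested.

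Bile acid synthesis enzymes had mostly small differences, more of them below 0 than above. None of 18 was called in either direction, 14 were below 0 (52.9% of all genes were), and the median was -0.06. On chow the median was -0.39, with 6 called lower (background 3.2%) and 1 higher (5.16%). The largest estimate was that of Cyp8b1, the sterol 12-alpha-hydroxylase of the cholic acid branch. Cyp8b1 read 8.04 to 9.09 (median 8.79) in KO_UDCA and 9.02 to 9.83 (median 9.60) in WT_UDCA. A single knockout, replicate 2 at 9.09, overlapped a single wild type, replicate 4 at 9.02. The difference was -0.81 (95% interval -1.17 to -0.44, unadjusted p = 0.000286, adjusted p = 0.411). On chow it was -2.82 (adjusted p = 0.000192), and the interaction was 2.01 (adjusted p = 0.00388). Within sample numbers 1 to 15 it was -0.90, and -0.62 in the upper range.

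Cyp7a1, the rate-limiting hydroxylase of the classic pathway, read 9.46 to 10.56 (median 9.96) in KO_UDCA and 9.72 to 10.79 (median 10.50) in WT_UDCA, ranges that overlap widely. The difference was -0.40 (95% interval -0.85 to 0.05, adjusted p = 0.893), against -2.08 on chow (adjusted p = 0.026), and the interaction did not pass the test (1.68, adjusted p = 0.118). Cyp27a1, which starts the alternative pathway, differed by -0.02 (95% interval -0.26 to 0.23). Cyp7b1, the oxysterol hydroxylase of that pathway, named after its value was seen, differed by -0.26 (adjusted p = 0.74).

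Bile acid transporters and receptors lay close to 0. The medians were 0.04 for 18 transporters and 0.03 for 16 receptors and regulators, with 0 called in either list. Abcb11, the canalicular bile salt export pump, differed by 0.03 (95% interval -0.17 to 0.23), and Slc10a1, the sinusoidal uptake carrier, by -0.02 (-0.18 to 0.13). Slc10a1 had been lower in knockouts on chow (-0.61, adjusted p = 0.0103), and its interaction passed the test (0.58, adjusted p = 0.0199). Nr0b2, the FXR-induced repressor SHP, differed by 0.10 with a wide interval (-0.33 to 0.53).

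Slc10a2, the sodium-dependent bile acid transporter of ileum and cholangiocytes, had the largest transporter estimate. It read 4.82 to 5.45 (median 5.06) in KO_UDCA and 4.22 to 4.92 (median 4.68) in WT_UDCA, dim in all 6 wild types and in 1 knockout. The difference was 0.46 (adjusted p = 0.64), against 2.58 on chow (adjusted p = 5.1e-05), an interaction of -2.12 (adjusted p = 9.11e-05). Slc51b, a basolateral bile acid exporter subunit named after its value was seen, was dim in all 12 mice and differed by 0.21 (95% interval -0.35 to 0.76), against 1.23 on chow. Vdr, the vitamin D receptor, was dim as well, with a difference of -0.31 (adjusted p = 0.843). Of the Cyp2c relatives of Cyp2c70, 0 of 14 were called, 7 were above 0 and 7 below, the median was 0.01, and the member with the smallest p, Cyp2c54, differed by -0.26 (adjusted p = 0.87).

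Genes that distinguished the genotypes on chow mostly kept the sign under UDCA but not the size. On chow, 2008 genes were called (8.36%), 1240 higher (5.16%) and 768 lower (3.2%), and 5643 (23.5%) had an unadjusted p below 0.05. These were chosen on arrays that the UDCA comparison does not use. Their chow medians come from the same arrays that chose them, so the choice itself enlarges the chow medians. How much of the fall in size this makes was not tested. Of the 1240, 956 (77.1%) were above 0 under UDCA, where 47.1% of all genes were, and the median fell from 0.63 on chow to 0.09. Of the 768, 564 (73.4%) were below 0, where 52.9% of all genes were, and the median went from -0.54 to -0.06. At an unadjusted p below 0.05, 171 of the 1240 (13.8%) were higher under UDCA and 8 were lower, and 72 of the 768 (9.38%) were lower and 3 higher. Genes of one cell type move together between mice, so these counts are not independent observations.

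The strongest chow genes were read in the same way, and the same limit holds for their chow medians. Of 251 genes at least 2-fold higher on chow, 207 (82.5%) were above 0 under UDCA, with a median of 0.14 against 1.28, and for 247 (98.4%) the whole 95% interval under UDCA lay within 2-fold. Of 63 at least 2-fold lower on chow, 53 (84.1%) were below 0, with a median of -0.21 against -1.20, and 48 (76.2%) had the interval within 2-fold. KO_UDCA replicate 4 weighed most on the higher genes: without it 70.6% of the 1240 were above 0 and their median was 0.07. Without both replicate 4 arrays the share was also 70.6%, with a median of 0.06, and within sample numbers 1 to 15 it was 76.1%.

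The direct test of the diet's effect on the genotype difference called 642 genes (2.67%), 498 with the UDCA difference below the chow difference (2.07%) and 144 with it above (0.6%). This fit uses all 22 arrays and one variance per gene. For genes that vary more in KO_chow (median SD 0.193, against 0.176 in KO_UDCA and 0.184 in WT_UDCA), that variance can make p too small. The counts depended on single mice. The interaction count was 301 without KO_chow replicate 2, 370 without 5, 1028 without 1 and 1219 without 4, it was 394, 415, 404 and 427 without WT_chow replicates 1, 3, 4 and 5, and 425 and 405 without KO_UDCA replicates 3 and 6. The chow count was 1070 and 1248 without KO_chow replicates 2 and 5, and 1111, 1261, 1252, 1214 and 1228 without WT_chow replicates 1 to 5.

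**Figure D2:**
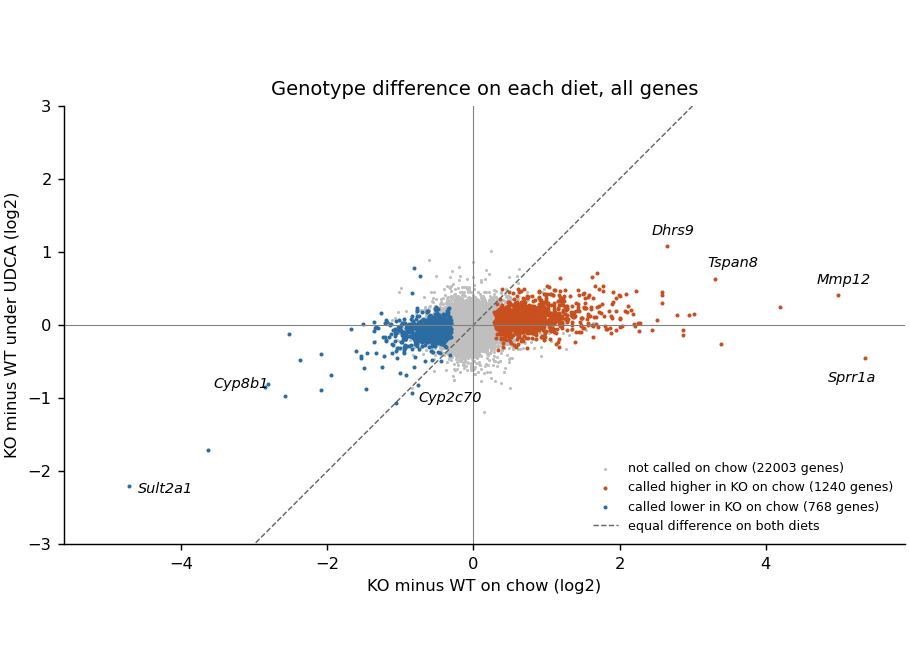
Knockout minus wild-type log2 difference on chow (horizontal axis) and under UDCA (vertical axis) for 24011 genes, 1 point per gene and with equal units on both axes. Colours mark genes called on chow (1240 higher, 768 lower) and the dashed line marks equal differences; genes called higher on chow have a median of 0.09 under UDCA and those called lower a median of -0.06, with Sult2a1 at -4.72 and -2.20 and Sprr1a at 5.35 and -0.46.

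Bile duct genes leaned higher in the UDCA-fed knockouts without any reaching the threshold. Of 16 cholangiocyte markers measured, 0 were called, 13 were above 0 (47.1% of all genes were) and the median was 0.23, the highest of the 41 lists, against 0.95 on chow, where 12 were called higher (background 5.16%). At an unadjusted p below 0.05, 5 were higher (background 2.39%) and 1 was lower (3.43%). In bulk tissue such values cannot tell more cells of a type from more RNA per cell. Averaged over the list, KO_UDCA mice read 0.10 to 0.34 relative to the WT_UDCA mean and WT_UDCA mice -0.09 to 0.10. Of the 6 knockouts, 5 stood above every wild type. Without KO_UDCA replicate 3 or 4, the highest mice, the list's median was 0.19 and 0.20, and with 16 added to each intensity it was 0.14.

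Tspan8, a tetraspanin of epithelial cells, had the largest estimate on that list. KO_UDCA mice read 4.38 to 5.51 (median 4.84) and WT_UDCA mice 4.10 to 4.40 (median 4.22). Tspan8 was dim in all 6 wild types and in 3 knockouts. Knockout replicates 3, 4 and 5 were at 5.14 to 5.51 and the other 3 at 4.38 to 4.54, overlapping the wild types at one mouse. The difference was 0.62 (95% interval 0.25 to 0.99, adjusted p = 0.64), against 3.30 on chow, and the interaction was -2.68 (adjusted p = 5.69e-05). Krt19, the ductal keratin, was dim in all 12 mice and differed by 0.24 (95% interval -0.02 to 0.50, adjusted p = 0.883; 0.93 on chow). Krt7, its partner keratin, was dim in 5 mice of each group and differed by 0.06 (-0.17 to 0.29), with KO_UDCA replicate 3 alone at 5.35. Epcam, the epithelial adhesion molecule, differed by 0.42 (adjusted p = 0.772), Muc1, a mucin, by 0.45 (adjusted p = 0.853) and Sox9, the ductal transcription factor, by 0.21 (adjusted p = 0.918). The secretin receptor gene Sctr was the exception below 0 at the unadjusted threshold (-0.28, adjusted p = 0.853).

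Epithelial injury genes had a small median beside that on chow. The median of 17 was 0.13, against 1.46 on chow, where 14 were called higher (background 5.16%). Under UDCA 0 were called and 12 were above 0 (47.1% of all genes were). At an unadjusted p below 0.05, 4 were higher (background 2.39%) and 1 was lower (3.43%). Averaged over the list, 4 of 6 knockouts stood above every wild type. Sprr1a, a cornified-envelope protein of stressed epithelium, read 3.76 to 4.50 (median 3.94) in KO_UDCA and 3.87 to 5.35 (median 4.40) in WT_UDCA. All 6 knockouts and 5 wild types were dim. The difference was -0.46 (adjusted p = 0.853), against 5.35 on chow, where knockouts read 7.68, 11.50, 9.44, 7.42 and 11.36, and the interaction was -5.81 (adjusted p = 9.11e-05). Anxa2, an annexin, differed by 0.14 (95% interval -0.04 to 0.32) against 2.79 on chow, and Lgals3, galectin 3, by 0.15 (-0.08 to 0.38) against 2.18.

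Dhrs9 had the largest estimate of the injury genes measured. The gene encodes an enzyme that oxidises retinol and 3-alpha-hydroxysteroids. It read 5.50 to 7.10 (median 6.12) in KO_UDCA and 4.25 to 5.48 (median 5.27) in WT_UDCA, with no overlap. Replicates 4 and 5 were the highest knockouts, at 7.10 and 6.62. The estimate was 2.11-fold (log2 difference 1.08, 95% interval 0.53 to 1.63, adjusted p = 0.496). On chow it was 6.25-fold (log2 difference 2.64), and the interaction was -1.57 on the log2 scale (adjusted p = 0.016).

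**Figure D3:**
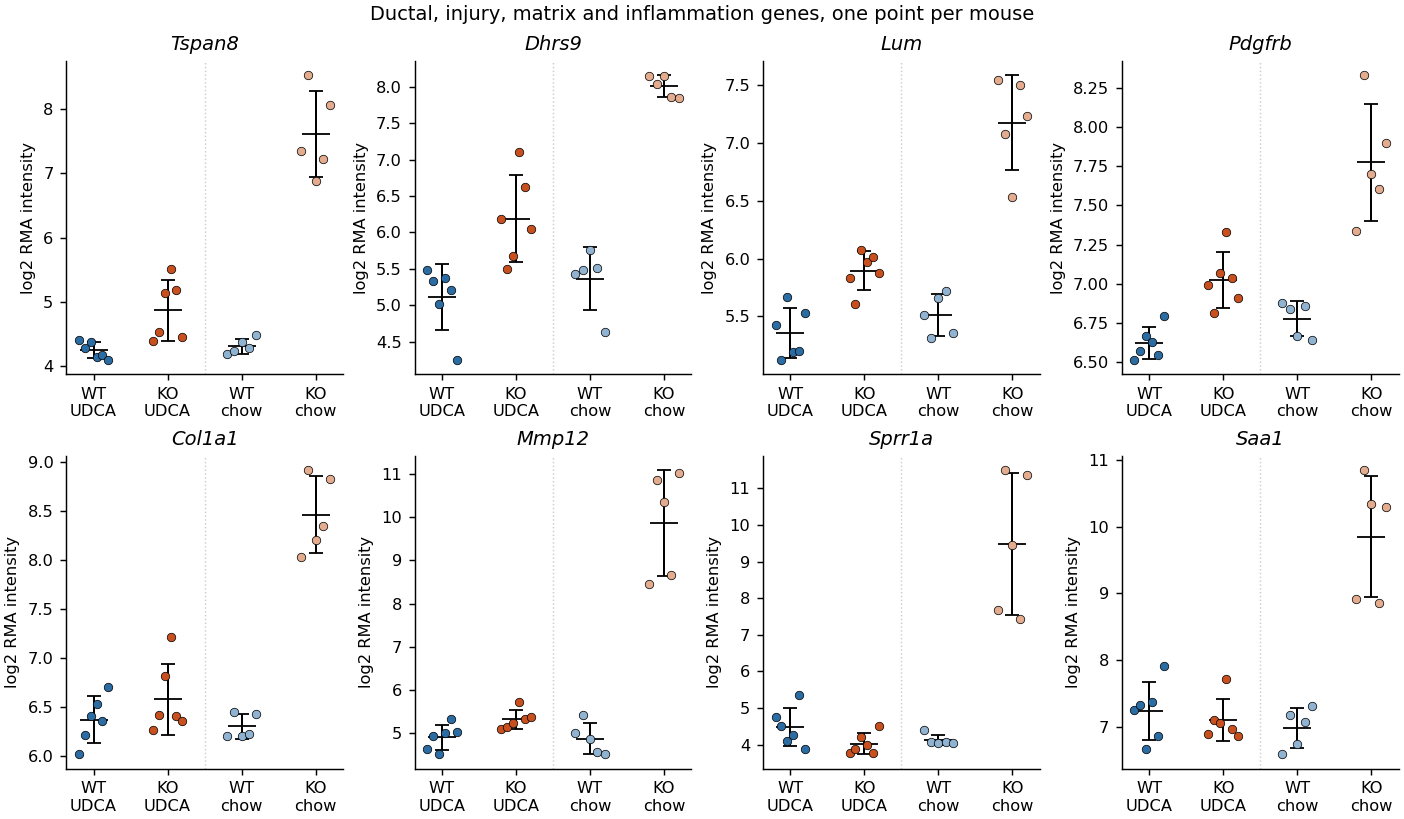
Log2 RMA intensity (vertical axis, a different range in each panel) of 8 ductal, injury, matrix and inflammation genes in each mouse, by genotype and diet. Points are mice (6 in each UDCA group, 5 in each chow group) and bars are the mean ± SD. KO_UDCA mice lie near the wild types for Sprr1a (3.76 to 4.50) and Saa1 (6.87 to 7.71) and partly above them for Dhrs9 (5.50 to 7.10), while KO_chow mice lie above all other mice in each panel.

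Matrix genes leaned the same way by small amounts. Of 34 measured, 0 were called, 31 were above 0 (47.1% of all genes were), 8 were higher (background 2.39%) and 1 lower (3.43%) at an unadjusted p below 0.05, and the median was 0.14. On chow it was 0.94, with 31 called higher (background 5.16%). For all 34 the 95% interval lay within 2-fold. The averaged list ran from 0.01 to 0.39 in KO_UDCA and from -0.06 to 0.06 in WT_UDCA, with 4 of 6 knockouts above every wild type. Replicate 4 was the highest (0.39), and without it the median over the list was 0.09. The mean of the cholangiocyte markers was among the highest in the same mouse (0.33), and its part in the matrix values was not tested.

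The main fibrillar collagens were not called, and the ranges overlapped. Col1a1, the alpha 1 chain of type I collagen, read 6.26 to 7.21 (median 6.41) in KO_UDCA and 6.01 to 6.70 (median 6.38) in WT_UDCA. Only replicates 3 and 4, at 6.82 and 7.21, exceeded the wild types. The difference was 0.21 (95% interval -0.13 to 0.54, adjusted p = 0.933), against 2.16 on chow, with an interaction of -1.95 (adjusted p = 6.99e-05). Col3a1 differed by 0.16 (-0.21 to 0.53) and Col1a2 by 0.24 (-0.05 to 0.52). Timp1, an inhibitor of matrix proteases that had differed by 2.22 on chow, was at -0.01 (adjusted p = 0.998).

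A few genes of fibroblasts had intervals above 0, though none was called. Lum, the collagen-binding proteoglycan lumican, read 5.60 to 6.08 (median 5.92) in KO_UDCA and 5.13 to 5.67 (median 5.32) in WT_UDCA, with 1 knockout below 1 wild type. The difference was 0.54 (95% interval 0.30 to 0.77, unadjusted p = 0.000187, adjusted p = 0.402), and it was 1.66 on chow. Pdgfrb, the PDGF receptor of stellate cells and pericytes, read 6.81 to 7.33 in KO_UDCA and 6.51 to 6.79 in WT_UDCA, without overlap. It differed by 0.41 (95% interval 0.21 to 0.60, adjusted p = 0.412; 1.00 on chow). Pdgfra, its relative in portal and other fibroblasts, named after its value was seen, differed by 0.42 (adjusted p = 0.554). Dpt, dermatopontin, a matrix protein of fibroblasts, differed by 0.66 (95% interval 0.31 to 1.01, adjusted p = 0.497), and replicate 4 was its highest knockout at 7.80.

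The wider fibroblast lists had smaller medians. The median was 0.07 for 15 stellate cell and myofibroblast markers, of which 9 were above 0 (47.1% of all genes were), 4 were higher at an unadjusted p below 0.05 (background 2.39%) and 1 was lower (3.43%). The higher members were Pdgfra, Pdgfrb, Cygb (0.34) and Reln (0.21), and the lower one was Ecm1 (-0.28). Averaged over that list, 4 of 6 knockouts stood above every wild type, and replicate 4 was the highest (0.24). The median was 0.03 for 10 portal fibroblast markers, of which 6 were above 0 and 1, Dpt, was higher at that threshold. Acta2, smooth muscle actin of activated stellate cells, differed by -0.03 (adjusted p = 0.993), and Lrat, which esterifies retinol in stellate cells, by 0.07 (adjusted p = 0.982). Thy1 and Gli1, portal fibroblast markers, were at -0.04 and 0.00. Postn, the matrix protein periostin, was lower at the unadjusted threshold only (-0.34, adjusted p = 0.853).

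Genes of recruited macrophages were not called. The median of 16 was 0.10, against 1.33 on chow, where 13 were called higher (background 5.16%). Under UDCA 0 were called and 12 were above 0 (47.1% of all genes were). At an unadjusted p below 0.05, 3 were higher (background 2.39%) and 0 were lower (3.43%). Averaged over the list, 4 of 6 knockouts stood above every wild type. Mmp12, the macrophage elastase, read 5.10 to 5.73 (median 5.29) in KO_UDCA and 4.53 to 5.33 (median 4.97) in WT_UDCA. The groups overlapped. The difference was 0.41 (95% interval 0.12 to 0.70, unadjusted p = 0.00843, adjusted p = 0.719), against 4.99 on chow, where knockouts read 8.46, 10.86, 10.35, 8.66 and 11.01, and the interaction was -4.58 (adjusted p = 1.3e-05). Gpnmb, a glycoprotein of lipid-laden macrophages, was dim in all 12 mice and differed by 0.15 (-0.09 to 0.39). Cd9, a tetraspanin of such macrophages and other cells, differed by 0.37 (adjusted p = 0.705; 1.53 on chow).

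Kupffer cells, the resident macrophages, gave a mixed picture. The median of 12 markers was 0.02, 6 above and 6 below 0. On chow it was -0.35, with 6 called lower (background 3.2%) and 1 higher (5.16%). Under UDCA, 2 were lower (background 3.43%) and 0 higher (2.39%) at an unadjusted p below 0.05. Cd163, the haemoglobin scavenger receptor, had the largest difference of the list. It read 5.57 to 7.05 (median 6.38) in KO_UDCA and 6.59 to 7.52 (median 7.11) in WT_UDCA. Knockout replicates 3 to 6 read 5.57 to 6.63 and overlapped the lowest wild type at one mouse. The difference was -0.69 (95% interval -1.16 to -0.21, adjusted p = 0.709), against -1.94 on chow, and the interaction was 1.26 (adjusted p = 0.0215). Clec4f (-0.08), Timd4 (-0.02) and Vsig4 (0.15), which define the resident cells, were not called. The averaged list overlapped widely, ranging from -0.32 to 0.41 in KO_UDCA and from -0.31 to 0.23 in WT_UDCA.

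Other immune and vascular lists showed 0 called genes each. Sinusoidal endothelial markers had 12 of 13 members above 0 (47.1% of all genes were) and a median of 0.13, and KO_UDCA replicate 1 (0.57) and WT_UDCA replicate 4 (-0.41) were the extremes of the averaged list. Pecam1, the endothelial adhesion molecule with the smallest p of that list, differed by 0.20 (adjusted p = 0.893). Acute phase genes had a median of -0.01, against 0.43 on chow. Saa1, the serum amyloid protein, read 6.87 to 7.71 in KO_UDCA and 6.66 to 7.90 in WT_UDCA and differed by -0.13 (95% interval -0.54 to 0.27, adjusted p = 0.973; 2.87 on chow). Medians were -0.01 for neutrophil markers, 0.01 for cytokines and chemokines, 0.01 for T and NK cell markers and -0.02 for B and plasma cell markers. Of 24 cytokines and chemokines, 4 were higher at an unadjusted p below 0.05 (background 2.39%) and 1 was lower (3.43%). Cd3g, a T cell receptor subunit, differed by 0.41 (adjusted p = 0.759) and Ccl3, a chemokine, by 0.41 (adjusted p = 0.705). Ccl3 was dim in all 6 wild types and 5 knockouts, and Cd3g in 5 wild types and 1 knockout.

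**Figure D4:**
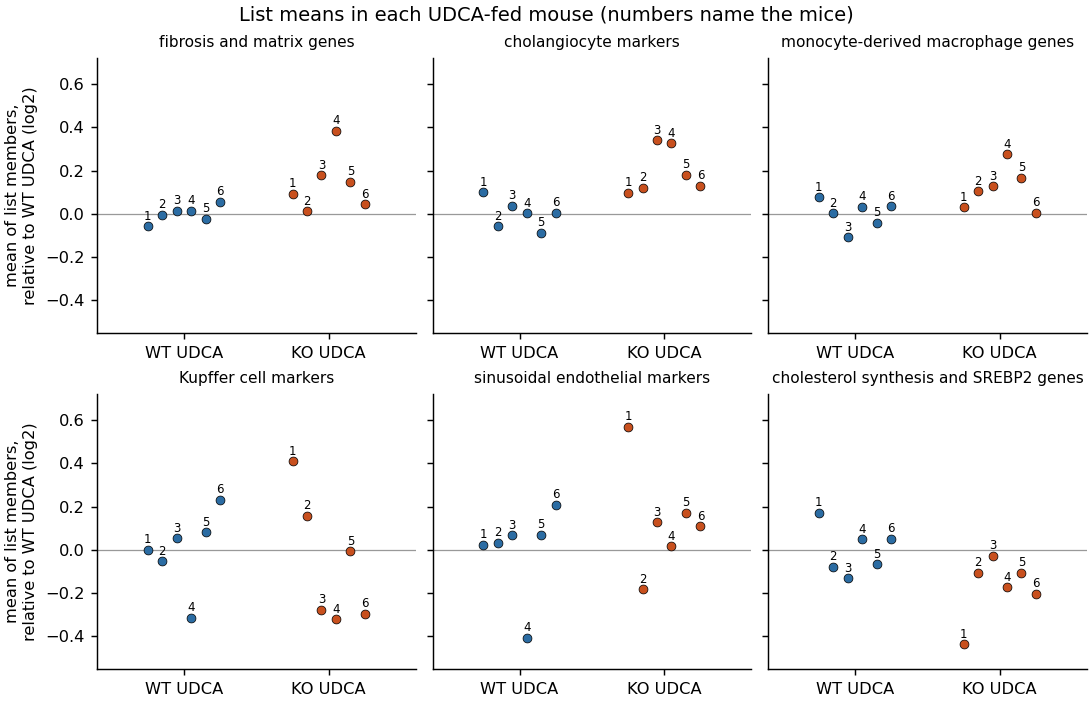
Mean log2 level of 6 gene lists in each UDCA-fed mouse, relative to the WT_UDCA mean (vertical axis, log2). Points are mice and the numbers beside them are replicate names. KO_UDCA replicate 4 is the highest for matrix genes (0.39) and macrophage genes (0.28), replicate 1 is the highest for Kupffer (0.41) and sinusoidal endothelial (0.57) markers, and WT_UDCA replicate 4 is the lowest wild type for both of these.

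Cholesterol synthesis genes were the list with the lowest median. All 18 members measured were below 0 (52.9% of all genes were) and the median was -0.18, a small shift that was -0.15 on chow, where 0 were called as well. The range was narrow, from -0.31 for Cyp51, the lanosterol demethylase, to -0.02 for Nsdhl, and 2 members, Cyp51 and Lss, were lower at an unadjusted p below 0.05 (background 3.43%). Hmgcs1, HMG-CoA synthase, differed by -0.29 (adjusted p = 0.883) and Sqle, squalene epoxidase, by -0.24 (adjusted p = 0.921). By mouse, the averaged list ran from -0.44 to -0.03 in KO_UDCA and from -0.13 to 0.17 in WT_UDCA, so the groups overlapped. KO_UDCA replicate 1 was the lowest, and without it the median was -0.11. These genes are known to move together with feeding and sterol supply, and their values are not independent.

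Sex-biased genes included the called gene Sult2a1. Female-biased liver genes had a median of -0.04 over 17 measured, against -1.27 on chow. On chow 10 were called lower (background 3.2%) and 2 higher (5.16%). Under UDCA Sult2a1 was the 1 called member. Cyp2b13, a female-biased P450, differed by -0.45 (95% interval -0.79 to -0.11, adjusted p = 0.759), and Cyp17a1, the steroid 17-alpha-hydroxylase, by -0.06 against -1.67 on chow. Ntrk2, a neurotrophin receptor gene dim in all 6 wild types and 4 knockouts, was above 0 (0.52, adjusted p = 0.674, and 1.03 on chow).

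Male-biased genes had a median of -0.16 over 16 measured, with 4 lower (background 3.43%) and 1 higher (2.39%) at an unadjusted p below 0.05. Elovl3, a fatty acid elongase that also follows the time of day, read 3.55 to 4.11 (median 3.90) in KO_UDCA and 3.51 to 5.22 (median 5.00) in WT_UDCA. It was dim in all 6 knockouts and in 2 wild types. All wild types but replicate 4 were at 4.52 to 5.22 and above every knockout, and replicate 4, at 3.51, was below every knockout. The difference was -0.89 (adjusted p = 0.628), and it passed the test without WT_UDCA replicate 4 (-1.14, adjusted p = 0.0134) and without both replicate 4 arrays (-1.07, adjusted p = 0.0362). The circadian clock list had a median of -0.12, with WT_UDCA replicate 4 the lowest wild type (-0.22) and KO_UDCA replicate 4 the lowest knockout (-0.33). The part of the clock in the Elovl3 values was not tested.

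Remaining lists gave medians within 0.11 of 0, among them cell cycle genes (0.08), lipogenesis genes (-0.02), fatty acid oxidation genes (0.00), pericentral genes (-0.05), periportal genes (0.01), genes of the ER stress response (-0.03) and NRF2 targets (-0.08). NRF2 targets had 14 of 18 members below 0 and pancreas genes 7 of 7 (median -0.11), where 52.9% of all genes were. In all, 32 of the 41 medians lay within 0.1 of 0 and the range was -0.18 to 0.23. On chow 33 lists had a called member, and under UDCA 2 had one, in both cases Sult2a1. Hmox1, the haem oxygenase induced by NRF2, differed by -0.32 (95% interval -0.66 to 0.02), Trib3, a stress-induced pseudokinase, by -0.29 (adjusted p = 0.691) and Egr1, an immediate early transcription factor, by 0.34 (adjusted p = 0.874).

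**Figure D5:**
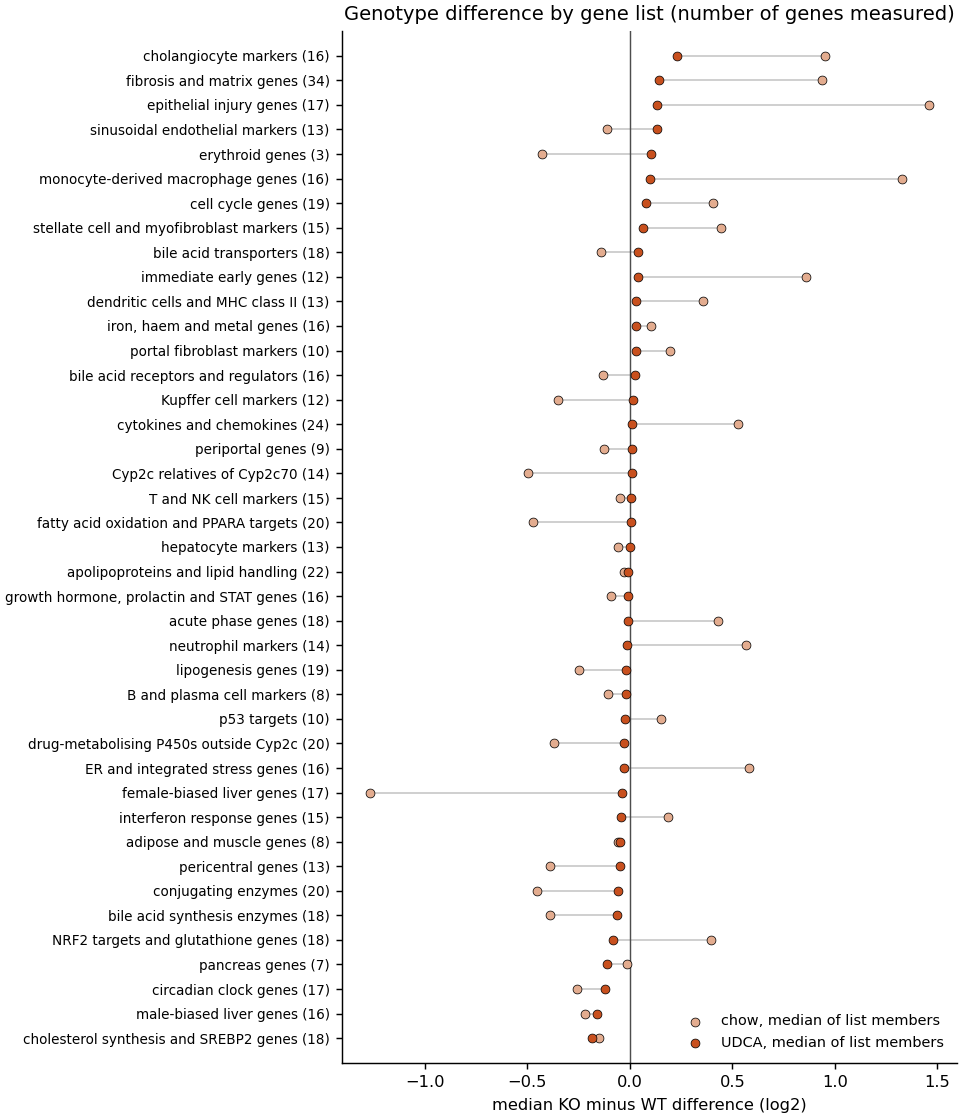
Median knockout minus wild-type log2 difference of each of 41 gene lists (rows, with the number of genes measured) on chow (pale points) and under UDCA (dark points). The medians under UDCA lie between -0.18 and 0.23, and on chow they run from -1.27 for female-biased genes to 1.46 for epithelial injury genes.

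The genes with the smallest p-values after the called pair belonged to no single list. They are given here because of those p-values, so the values are descriptions. Tafa2, a secreted neuronal peptide gene, read 4.25 to 4.70 (median 4.64) in KO_UDCA, dim in all 6, and 5.03 to 5.43 (median 5.20) in WT_UDCA. The groups did not overlap. The difference was -0.69 (95% interval -0.91 to -0.47, adjusted p = 0.0734), close to the -0.92 on chow (interaction adjusted p = 0.552), and within sample numbers 1 to 15 it was -0.59. It passed the test in the fit to 22 arrays and with 16 added to the intensities (-0.45, adjusted p = 0.0475).

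1810053B23Rik, a transcript of unassigned function, read 4.27 to 5.20 in KO_UDCA and 5.14 to 5.84 in WT_UDCA and differed by -0.88 (adjusted p = 0.253), against -1.47 on chow. Aqp4, a water channel, differed by -0.65 without overlap of the groups (adjusted p = 0.411), against -1.01 on chow. Aqp4 was dim in all 6 knockouts and in 3 wild types. Bmerb1 (-0.34), Kirrel3 (-0.39), Spink13 (-0.43) and Pramel27 (-0.66) had differences below 0 but were dim in all 6 knockouts. Bmerb1, Spink13 and Pramel27 were also dim in all 6 wild types, and Kirrel3 in 2. The chow differences of these genes were not called. Serpina1e, a serpin that hepatocytes secrete, was bright and differed by -0.82 (adjusted p = 0.593), close to the -0.76 on chow. Fitm1, a lipid droplet protein (-0.42, adjusted p = 0.748), and Rhbg, an ammonium transporter of pericentral hepatocytes (-0.25, adjusted p = 0.83), were the members with the smallest p of their lists.

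On the higher side, Atp11a, a phospholipid flippase, read 6.30 to 6.65 (median 6.56) in KO_UDCA and 5.67 to 6.14 (median 6.01) in WT_UDCA, without overlap. The difference was 0.54 (95% interval 0.34 to 0.74, adjusted p = 0.196), against 1.00 on chow. Tifa, an adaptor of NF-kappaB signalling, differed by 0.49 (adjusted p = 0.253) and Itgb8, an integrin subunit that activates latent TGF-beta, by 0.48 (adjusted p = 0.253), both without overlap. Itgb8 was dim in all 6 wild types and in 1 knockout. It differed by 1.26 on chow, with an interaction of -0.77 (adjusted p = 0.0227). Tagln2, an actin-binding protein, read 7.33 to 7.49 in KO_UDCA and 6.82 to 7.25 in WT_UDCA and differed by 0.39 (adjusted p = 0.411), against 2.00 on chow. Bicc1, an RNA-binding protein of tubular epithelia, named after its value was seen, differed by 0.53 (adjusted p = 0.469), against 1.77 on chow.

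Tcf21, a transcription factor of mesenchymal cells, passed the test only when 1 knockout was left out. Knockouts other than replicate 2 read 6.04 to 6.14 and replicate 2 read 5.57, while WT_UDCA mice read 5.51 to 5.61. The difference was 0.42 (adjusted p = 0.412), and without replicate 2 it was 0.51 (adjusted p = 0.0254), the 1 higher call found in any setting. Cdc14a, a phosphatase (0.44), Cyp1b1, a P450 of mesenchymal cells (0.50) and Cd226, an activating receptor of T and NK cells (0.34), each had an adjusted p between 0.411 and 0.412. Cd226 was dim in all 6 mice of each group, Cyp1b1 in all 6 wild types and 4 knockouts, and Cdc14a in 3 wild types.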

How the data were processed

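Liver RNA of 22 mice was hybridised to Affymetrix MoGene 2.0 ST arrays. The authors deposited intensity values on a linear scale, which per the labels come from RMA with probe-level modelling; the notes of the submitters give no version, and no build is named. Intensities ran from 1.656 to 10284. The number of arrays limits the precision. Of 24973 rows, 24015 carried 1 symbol in the platform annotation and 958 did not. RefSeq (GRCm38.p6) matched 23922 rows and altered 0 symbols. For 4 symbols on several rows the brightest row was kept, leaving 24011 genes.

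Log2 intensities without pseudocount or filter were fitted with limma 3.58.1 in R 4.3.3: 12 UDCA arrays for the main comparison, 10 chow arrays for chow, all 22 for the interaction. P-values are two-sided, with Benjamini-Hochberg adjustment over all genes. The main comparison leaves out the chow arrays because KO_chow mice vary more. Replicate numbers follow the order of the records and pair nothing. Each sample is labelled as liver of its own number, and where samples are not separate mice p-values measure only their spread. The code was tested on simulated data.

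The 41 lists (649 genes, 45 of them not measured), the members, the tests and the named genes were chosen with earlier results of these data known. The naming rule takes 14 set genes, up to 15 called genes without overlap in each direction, from each list up to 3 called members or else the member with the smallest p, and up to 8 called genes by interaction p, leaving out predicted genes, Rik clones and receptor segments among the largest changes. It gave 52 genes, and 87 were tabulated by mouse. Others, among them the 20 with the smallest p and list members given by their range, were named after their values were seen. Alternatives varied the arrays fitted, a filter on dim genes, a pseudocount of 16, centring, quantile normalization, variances, array weights, sample numbers, the rows of a gene and each array left out. Added after the data were seen were 2 more: leaving out both replicate 4 arrays, and sample numbers 1 to 15 only.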

Additional observations from a re-analysis of the deposited data

Results flagged for a closer look

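A mouse stood apart from its group in 14 of 180 tests, and chance gives about 1 in 20. Among KO_UDCA mice these were replicate 2 for Siglech (4.18), Tcf21 (5.57) and Cd24a (5.44), replicate 3 for Krt7 (5.35), replicate 4 for Saa1 (7.71) and Akr1c18 (5.63), and replicate 5 for Bmerb1 (3.86). Among WT_UDCA mice they were replicate 3 for Cyp7a1 (9.72), replicate 5 for Nr1d2 (8.43), replicate 6 for Cd3g (5.48) and Tcf21 (5.51), replicate 4 on the first and second principal components (28 and -17.7) and replicate 1 on the third (34). The WT_UDCA values of Tcf21 span only 5.51 to 5.61.

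For 29 of the 87 genes tabulated by mouse, the genotype difference under UDCA departed from that on chow by the interaction test at an adjusted p below 0.05. Over all genes 2.67% did, and many of the 87 were chosen after their values were seen, so the count says nothing of genes at large. The interaction, the UDCA difference minus the chow difference, was above 0 for Sult2a1 (2.51), Cyp8b1 (2.01), Cd163 (1.26), Slc10a1 (0.58) and Cd226 (0.52). Of these 5, Cd226 differed from the others in sign on the diets, at 0.34 under UDCA and -0.18 on chow, and neither value was called.

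The interaction was below 0 for the injury, ductal and transport genes Sprr1a (-5.81), Tspan8 (-2.68), Anxa2 (-2.65), Slc10a2 (-2.12), Lgals3 (-2.03), Dhrs9 (-1.57), Muc1 (-1.46), Cd24a (-1.28) and Krt19 (-0.69). It was below 0 for the matrix and mesenchymal genes Col1a1 (-1.95), Col3a1 (-1.59), Col1a2 (-1.29), Lum (-1.13), Dpt (-0.97) and Pdgfra (-0.62). The same held for the macrophage and inflammation genes Mmp12 (-4.58), Saa1 (-3.01), Gpnmb (-2.87), Il1rn (-1.25), Ccl3 (-1.16) and Cd9 (-1.16), and for Tagln2 (-1.61), Bicc1 (-1.24) and Itgb8 (-0.77).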

How the results depend on the processing

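Cyp2c70 was called in every setting run except sample numbers 1 to 15 alone (-0.98, adjusted p = 0.17). Sult2a1 was not called with trended robust variances (-2.20), without both replicate 4 arrays (-2.20) or within sample numbers 1 to 15 (-1.65), and leaving out each mouse gave -2.36 to -2.05. The 2 calls became 4 in the fit to 22 arrays, 1 with trended robust variances, 0 within sample numbers 1 to 15, and 1 to 2 (0 to 1 higher, 1 to 2 lower) with a mouse left out. Lists with a called member went from 2 to 0 with trended robust variances, 1 without both replicate 4 arrays, 0 within sample numbers 1 to 15, and 0 to 2 with a mouse left out. The chow count was 3295 in the fit to 22 arrays and 1070 to 2549 with a mouse left out, and the interaction count 301 to 1219. Signs of some uncalled differences near 0 turned. Within sample numbers 1 to 15 the values were -0.015 for Abcb11, 0.062 for Saa1, 0.009 for Tat and 0.004 for Il1rn, and without both replicate 4 arrays -0.084 for Nr0b2. With a mouse left out the ranges were -0.083 to 0.053 for Cyp27a1, -0.048 to 0.283 for Nr0b2, -0.014 to 0.079 for Abcb11, -0.045 to 0.003 for Slc10a1, -0.028 to 0.104 for Krt7 and -0.254 to 0.003 for Saa1. The cause was not tested. The shares of chow genes keeping their sign ran from 70.6% to 79.9% and from 69.4% to 76.3%.

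No paired analysis was possible because replicate numbers follow the order of the records and pair no mice. Dim genes have inexact differences, and with 12 arrays the median half-width of the unadjusted 95% interval was 0.23 log2 units. The adjusted threshold is stricter: estimates as large as 1.08 for Dhrs9 and -1.71 for Sult2a2 did not pass it.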
